A study of Homo sapiens with 5 samples.

Results

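Matriptase and prostasin are serine proteases held at the surface of epithelial cells. Described here are 10 genes for these, for related serine proteases and for inhibitors. Of the 10 genes, 9 have an entry of their own among the 37181 entries of the table. The genes were chosen by their symbols, with earlier results of these data known. The proteases were ST14 (matriptase), PRSS8 (prostasin), PRSS22, TMPRSS2, TMPRSS4, TMPRSS11E and HPN (hepsin), and the inhibitors were SPINT1, SPINT2 and SERPINB5 (maspin). Each symbol with an entry had 1 entry. SPINT2 had none under its own name, and its transcripts sat in an entry named C19orf33.

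RNA of HCC827 cells, a human lung adenocarcinoma line, was compared with RNA of HCC827/GR cells, the gefitinib resistant line derived from it. Gefitinib inhibits the kinase of EGFR. HCC827/GR was raised from the parental cells under rising doses of the drug for more than 6 months, and both lines carry the EGFR exon 19 deletion that makes HCC827 cells sensitive. There were 3 HCC827/GR libraries (replicates 1, 2 and 3) and 2 HCC827 libraries (replicates 2 and 3). A single resistant line stands for resistance here, and the labels do not say whether the replicates were separate cultures, so the p-values measure the spread between these libraries, which may be technical.

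Matriptase is a transmembrane protease made as an inactive zymogen that can activate itself. It and prostasin, which is tethered to the membrane by a lipid anchor, can activate each other and act together in epithelial barriers, where they cleave the epithelial sodium channel and the precursors of growth factors. SPINT1 (HAI-1) and SPINT2 (HAI-2) are membrane proteins with Kunitz domains that block matriptase, prostasin and hepsin, so that the balance of protease and inhibitor matters for epithelial integrity. Maspin is a serpin that lacks the usual protease-trapping action of its family.

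The 4 members in the RefSeq promoter table (GRCh38.p14), which are TMPRSS11E, SPINT1, SERPINB5 and HPN, were searched for the E-box that ZEB and SNAI repressors recognise. The windows held 250 bases before and 50 after a start site, and the letters searched were CAGGTG and, for the other strand, CACCTG. The E-box matches of SPINT1 and SERPINB5, which were called lower in HCC827/GR, and of HPN, whose groups overlapped, are shown on the plus strand with the motif in capitals.
SPINT1 chr15:40844439-40844468: tcccgggctgatCAGGTGtgtctcctcctc
SERPINB5 chr18:63476920-63476949: ggcggtgctgccCAGGTGagccaccgctgc
HPN chr19:35041542-35041571: cgcagacaggcaCACCTGggtccccctgga
HPN chr19:35041625-35041654: ggccccatcagcCAGGTGgcctccagtgct
HPN chr19:35041707-35041736: ccccctcctcctCAGGTGaggcagcctggc
SPINT1 had 2 windows, and the match lay in 1 of them, 26 bases before that start (-26 for its first base). The SERPINB5 match began at -26 as well, and those of HPN at -167, -84 and -2. In GENCODE 29 the SERPINB5 match lies within an exon of that gene, while the SPINT1 match and those of HPN lie inside the gene bounds but wholly within no exon. TMPRSS11E, with a GC content of 37% in its window, had no match. An E-box of these letters was present in 20.6% of the 35116 windows of the table. The grainyhead motif AACCGGTT was present in 0.134% of all windows and in none of those of the members. A match describes the letters and does not show that a factor binds there.

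The labelled cell type was checked first against its markers, because the members are epithelial genes. Of 9 epithelial markers tested, 6 were called lower in HCC827/GR by limma and none higher (also none higher at an unadjusted p under 0.05). Over all entries tested, limma called 5.71% lower and 5.26% higher. How these markers were called by Ballgown's model is not given here. The epithelial markers summed to 1169 to 1272 FPKM in HCC827 and 487 to 622 FPKM in HCC827/GR. The keratins KRT8, KRT18 and KRT19 were the highest of them, with means 1.68-fold to 2.89-fold lower in HCC827/GR. The means of the other markers were from 1.14-fold (OCLN, whose groups overlapped) to 219-fold (ESRP1) lower. The sum thus follows the keratins and not each marker. NKX2-1, a transcription factor of lung adenocarcinoma, averaged 4.30 ± 0.422 FPKM in HCC827 (SD, n = 2) and 0.714 ± 0.277 FPKM in HCC827/GR (SD, n = 3), while the surfactant genes SFTPB and SFTPC were at most 0.139 FPKM. The fibroblast markers summed to 0.792 to 1.03 FPKM in HCC827 and 0.807 to 1.17 FPKM in HCC827/GR, and the leukocyte markers to 30.9 to 39.0 FPKM in HCC827 and at most 38.3 FPKM in HCC827/GR, nearly all from CD68, with PTPRC at most at 0.0228 FPKM. Of the 4 endothelial markers, PECAM1 was at 4.34 and 3.32 FPKM in HCC827 and listed at 0 in HCC827/GR, whereas VWF, CDH5 and CLDN5 were at most 0.0749 FPKM. The part of these differences in the results on the members was not tested, and in bulk RNA fewer cells that express a gene and less RNA per cell cannot be told apart. Libraries of a group correlated with r of 0.913 to 0.927 on the log2(FPKM + 1) scale and libraries of different groups with 0.851 to 0.873, across 16189 entries that are not independent.

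Matriptase, prostasin, PRSS22, SPINT1 and maspin were all lower in HCC827/GR, and no member was called higher. Matriptase, the most abundant of them in HCC827, fell from a mean of 34.7 to 1.55 FPKM, and maspin fell to a level at or near 0. The 5 members that passed the filter on low values (0.5 FPKM on average across the 5 libraries) were called lower by limma at a Benjamini-Hochberg adjusted p under 0.05, where 5.71% of the 16189 entries tested were called lower and 5.26% higher. Their median log2 fold change was -2.13, against 0.00 over all entries tested. Among the 9 members with an entry, 8 had every HCC827/GR library below both HCC827 libraries, and all 5 tested members were among these. The same held for 23.4% of the entries tested. The other 4 members with an entry were under the filter, so the 9 and the entries tested are unlike sets. No such share was computed for entries under the filter. Members could also pass the filter through their level in HCC827 alone, and they were chosen with earlier results of these data known. These counts therefore describe the genes and do not set them apart.

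**Figure D1:**
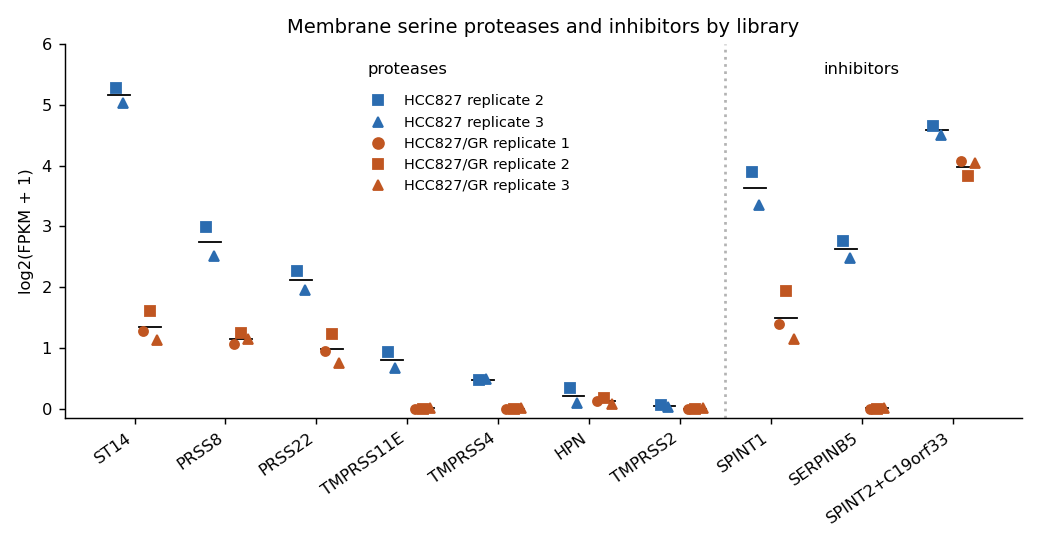
Level of each member as log2(FPKM + 1), with 1 point per library (blue, HCC827; orange, HCC827/GR) and a line at each group mean; SPINT2 is shown as the joined entry with C19orf33. Matriptase is the highest member in HCC827, at 37.9 and 31.6 FPKM, and lies between 1.19 and 2.04 FPKM in HCC827/GR.

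Among the proteases, ST14 (matriptase; GRCh38 chromosome 11, 130159562 to 130210376, plus strand, up to 19 exons) was at 37.9 and 31.6 FPKM in HCC827. In HCC827/GR it was at 1.42, 2.04 and 1.19 FPKM. Both parental libraries stood far above the 3 resistant ones, and the group means, 34.7 ± 4.44 (SD, n = 2) and 1.55 ± 0.441 FPKM (SD, n = 3), differed 22.4-fold. On the log2(FPKM + 1) scale, which understates changes of low genes, the difference was -3.82 (SE 0.18), with an adjusted p of 0.00234 by limma. Counting ST14 itself, 15 of the 16189 entries had a log2 fold change at least as low.

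PRSS8 (prostasin; chromosome 16, 31131433 to 31135762, minus strand, up to 6 exons) was at 6.93 and 4.67 FPKM in HCC827 and at 1.09, 1.38 and 1.21 FPKM in HCC827/GR. The groups did not overlap, and the 3 resistant libraries lay close together. Its means were 5.80 ± 1.60 (SD, n = 2) and 1.23 ± 0.147 FPKM (SD, n = 3), which is 4.73-fold lower in HCC827/GR, and its log2 fold change was -1.59 (SE 0.17, limma adjusted p = 0.0119, or 0.0547 without HCC827/GR replicate 1, which ended the call). AC009088.3, which overlaps PRSS8 on the opposite strand, was at 2.56 and 2.56 FPKM in HCC827 and 2.40, 1.97 and 2.13 FPKM in HCC827/GR. Strand-aware counting is not given in the sources used here, so reads of the PRSS8 locus cannot be assigned between these genes with certainty, and in HCC827/GR the antisense entry had the higher level.

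PRSS22 (tryptase epsilon; chromosome 16, 2852727 to 2858170, minus strand), a serine protease expressed in airway epithelium, was at 3.79 and 2.88 FPKM in HCC827. In HCC827/GR it was at 0.934, 1.36 and 0.678 FPKM, again with no overlap. The means were 3.34 ± 0.643 (SD, n = 2) and 0.990 ± 0.343 FPKM (SD, n = 3), a 3.37-fold difference. The log2 fold change of -1.13 (SE 0.19, limma adjusted p = 0.0319) was the smallest among the 5 members tested. This call was lost when either HCC827 library was left out (adjusted p of 0.148 without replicate 2 and 0.0965 without replicate 3), and also without HCC827/GR replicate 1 (0.103) or replicate 3 (0.0707). AC003965.2, on the strand opposite PRSS22, was at 0.180 and 0.191 FPKM in HCC827 and at 0.370, 0.406 and 0.443 FPKM in HCC827/GR, which is higher without overlap. Here too, reads cannot be assigned between the strands with certainty.

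The transmembrane proteases TMPRSS11E, TMPRSS4, HPN and TMPRSS2 had means under 0.5 FPKM and were not tested. TMPRSS11E (DESC1; chromosome 4, 68447449 to 68497604, plus strand), a protease of squamous epithelia, was at 0.918 and 0.592 FPKM in HCC827 and was listed at 0, 0 and 0.00901 FPKM in HCC827/GR. For its 2136-base transcript the HCC827 values equalled about 105.4 and 60.2 times the step in FPKM that 1 read appeared to be worth, and the third resistant library 1.25 times that step. TMPRSS4 (chromosome 11, 118077012 to 118121890, plus strand), a transmembrane protease linked to invasion in carcinomas, was at 0.387 and 0.398 FPKM in HCC827 and was listed at 0, 0 and 0.00310 FPKM in HCC827/GR. Both genes were near or at 0 in every resistant library. Without the filter, when 36011 entries were fitted and 2.10% of them were called lower, limma gave adjusted p-values of 0.0383 for TMPRSS11E and 0.0189 for TMPRSS4.

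TMPRSS2 (chromosome 21, 41464551 to 41531116, minus strand), which is known for priming viral spike proteins in airway cells, was at 0.0457 and 0.0172 FPKM in HCC827. Its HCC827/GR values were listed at 0, 0 and 0.00504 FPKM, and without the filter its adjusted p by limma was 0.291. HPN (hepsin; chromosome 19, 35040506 to 35066571, plus strand), a protease abundant in liver, was the member whose groups overlapped. It was at 0.270 and 0.0617 FPKM in HCC827 and at 0.0969, 0.124 and 0.0531 FPKM in HCC827/GR, with a log2 fold change of -0.09 and an adjusted p of 0.663 by limma without the filter. HCC827 replicate 2 alone was above the resistant libraries. Neither gene was called, which does not show that its level was equal in the lines.

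Of the inhibitors, SPINT1 (HAI-1; chromosome 15, 40844018 to 40858207, plus strand, up to 11 exons) was at 13.9 and 9.22 FPKM in HCC827. In HCC827/GR it was at 1.61, 2.83 and 1.22 FPKM, below both parental libraries. The means were 11.6 ± 3.32 (SD, n = 2) and 1.89 ± 0.835 FPKM (SD, n = 3), a 6.13-fold difference, and the log2 fold change was -2.13 (SE 0.30, limma adjusted p = 0.0200). The call was lost without HCC827 replicate 2 (adjusted p = 0.110 by limma), HCC827 replicate 3 (0.0727), HCC827/GR replicate 1 (0.0774) or HCC827/GR replicate 3 (0.0558). SPINT1-AS1, on the opposite strand, was at 0.449 and 0.250 FPKM in HCC827 and 0, 0.0298 and 0.0334 FPKM in HCC827/GR. As at PRSS8, reads cannot be assigned between the 2 strands with certainty.

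SERPINB5 (maspin; chromosome 18, 63476761 to 63505085, plus strand) was at 5.78 and 4.58 FPKM in HCC827. It was listed at 0, 0 and 0.00782 FPKM in HCC827/GR, so the groups were fully apart and no fold is given. Its difference on the log2(FPKM + 1) scale was -2.62 (SE 0.13, limma adjusted p = 0.00248) and became -5.68 with a pseudocount of 0.1, since the resistant libraries were at or near 0.

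SPINT2 (HAI-2; chromosome 19, 38244035 to 38292614, plus strand) could be read only through the entry named C19orf33, which joins 17 transcripts, 11 of SPINT2, 4 of C19orf33 and 2 of AC011479.1. That entry was at 24.2 and 21.6 FPKM in HCC827 and at 15.8, 13.3 and 15.5 FPKM in HCC827/GR. The resistant libraries were lower without overlap, with a log2 fold change of -0.59 (SE 0.12, limma adjusted p = 0.0453). The call held in 4 of 14 alternatives, with adjusted p-values from 0.0430 to 0.340. How much of the entry is SPINT2 cannot be told from its FPKM, and it was not counted among the members. PPP1R14A overlaps SPINT2 on the opposite strand, with the same limit on assigning reads. It was at 3.64 and 5.14 FPKM in HCC827 and at 4.60, 7.32 and 8.87 FPKM in HCC827/GR.

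**Figure D2:**
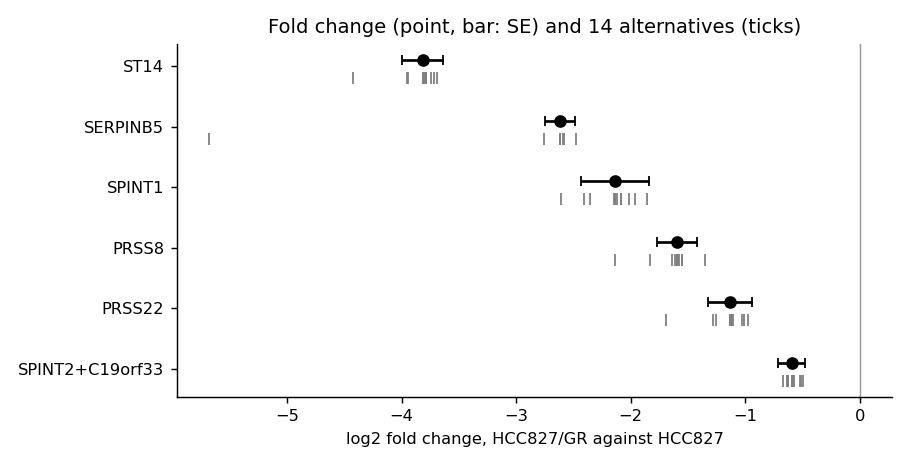
Difference of HCC827/GR from HCC827 in mean log2(FPKM + 1), plotted on the horizontal axis as log2 fold change, for the 5 tested members and the joined SPINT2 entry (point with SE), with the values under 14 alternatives as ticks below. All ticks lie below 0, and the tick of SERPINB5 at -5.68 is the one with a pseudocount of 0.1.

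The 5 calls did not hold under every model. With Ballgown's linear model, or with the replicate number as a block, no member had an adjusted p under 0.05, although 3 and 5 of the 5 members had an unadjusted p under 0.05 and all kept their direction.

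The proteases and inhibitors were then set against each other within each library, which FPKM allows because it is scaled per length. The 7 proteases summed to 50.2 and 40.2 FPKM in HCC827 and to 3.54, 4.91 and 3.15 FPKM in HCC827/GR. The 2 genes of the inhibitor group with an entry, SPINT1 and the serpin SERPINB5, summed to 19.7 and 13.8 FPKM in HCC827 and to 1.61, 2.83 and 1.23 FPKM in HCC827/GR. Matriptase made up 75.4% and 78.6% of the protease sum in HCC827 and 40.1%, 41.7% and 37.9% in HCC827/GR. The inhibitor sum leaves out SPINT2, whose joined entry (13.3 to 24.2 FPKM) cannot be divided, and includes maspin by family only, so it is not a measure of the inhibitory capacity of the cells. Both sums were thus lower in every resistant library, and matriptase made up a smaller share in each of them.

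The ratio of ST14 to SPINT1, the protease to its inhibitor, was 2.72 and 3.43 in HCC827 and 0.881, 0.724 and 0.975 in HCC827/GR. SPINT1 was the higher of the pair in each resistant library, and the lower in each parental one. As log2 ratios of (FPKM + 1) the values were 1.38 and 1.67 against -0.11, -0.33 and -0.02, a difference of -1.68. The exact permutation test, two-sided, gave p = 0.1, the smallest value that 3 against 2 libraries allow, and 0.133 after adjustment over the 4 ratios compared.

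ST14 against PRSS8, its partner protease, gave log2 ratios of 2.29 and 2.52 in HCC827 and 0.21, 0.36 and -0.01 in HCC827/GR. The difference was -2.22, with the same exact p of 0.1 (adjusted p = 0.133). As plain ratios without a pseudocount, ST14 over PRSS8 was 5.46 and 6.76 in HCC827 and 1.30, 1.48 and 0.988 in HCC827/GR. For PRSS8 against SPINT1 the log2 ratios were -0.91 and -0.85 in HCC827 and -0.32, -0.68 and -0.01 in HCC827/GR, a difference of 0.54 (exact permutation p = 0.2, adjusted 0.2), and the ratios without a pseudocount overlapped. The summed proteases over the summed inhibitors gave 1.31 and 1.48 against 0.80, 0.63 and 0.89, a difference of -0.62 (exact permutation p = 0.1, adjusted 0.133). Without a pseudocount that ratio was 2.55 and 2.92 in HCC827 and 2.20, 1.74 and 2.56 in HCC827/GR, and the groups overlapped.

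**Figure D3:**
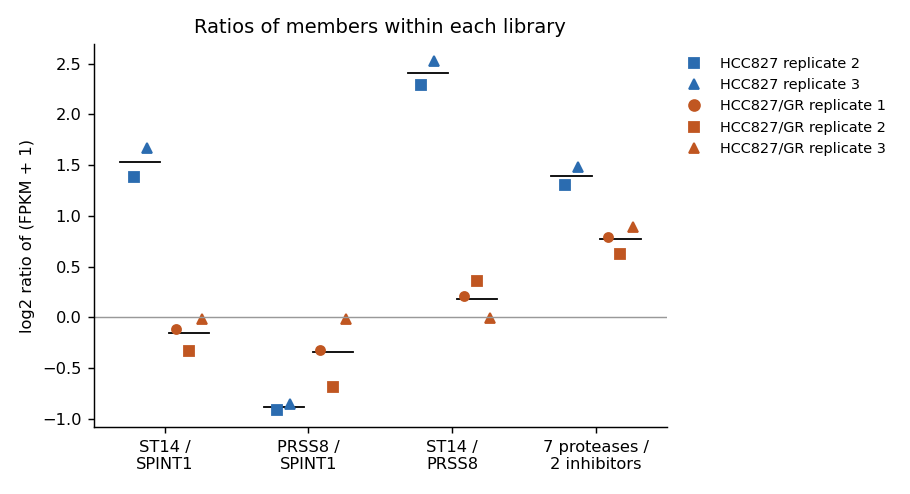
Log2 ratio of (FPKM + 1) between members within each library, with 1 point per library and a line at each group mean. ST14 over SPINT1 and ST14 over PRSS8 lie between -0.33 and 0.36 in HCC827/GR, and above 1.3 in HCC827. The pseudocount of 1 draws the ratios of low genes towards 0.

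In HCC827 the order of levels was ST14, SPINT1, then PRSS8 and SERPINB5, which overlapped, then PRSS22, TMPRSS11E, TMPRSS4, HPN and TMPRSS2. In HCC827/GR, SPINT1, ST14, PRSS8 and PRSS22 came first, and each overlapped the next. HPN followed, and TMPRSS11E, SERPINB5, TMPRSS2 and TMPRSS4 were at or near 0. The tested entries nearest to ST14 by Euclidean distance over the 5 log2(FPKM + 1) values were TSPAN1 (0.568), AC084116.4 (0.662) and CDH3 (0.993). Nearest to SPINT1 were ITGA2 (0.523), CGN (0.644) and CDC42BPG (0.655).

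Genes beside the members on their chromosomes were compared with them. Of the 20 nearest tested protein-coding genes of the 5 tested members (4 for each), 2 were called lower by limma and none higher (3 and 4 at an unadjusted p under 0.05), with a median log2 fold change of -0.01, and none was as low as its member. Those called were RHOV beside SPINT1 (-0.95, limma adjusted p = 0.0380) and VPS4B beside SERPINB5 (-0.81, adjusted p = 0.0445), both named after their values were seen and both no longer called when any 1 library was left out. PRSS21, which lies beside PRSS22 and encodes a related lipid-anchored protease, had a log2 fold change of 0.21. Beside TMPRSS4, which was not tested, MPZL3 and MPZL2 had log2 fold changes of -1.56 and -2.67 (limma adjusted p of 0.00876 and 0.00208). Genes beside other untested members were called lower too. They were RIPK4 beside TMPRSS2 (-1.43, limma adjusted p = 0.0380), SULT1B1 beside TMPRSS11E (-1.27, 0.0197) and LSR beside HPN (-1.86, 0.00793). All of these were also chosen after their values were seen. TMPRSS2, TMPRSS4, TMPRSS11E and HPN had 4 such neighbours each, and those not named above were not called in either direction. The highest log2 fold changes were 0.83 (BACE2, beside TMPRSS2), -0.24 (FXYD6, beside TMPRSS4), 0.02 (YTHDC1, beside TMPRSS11E) and 0.51 (GRAMD1A, beside HPN). No share of calls was computed for the neighbours of untested members. Over all entries tested, limma called 5.71% lower and 5.26% higher.

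**Figure D4:**
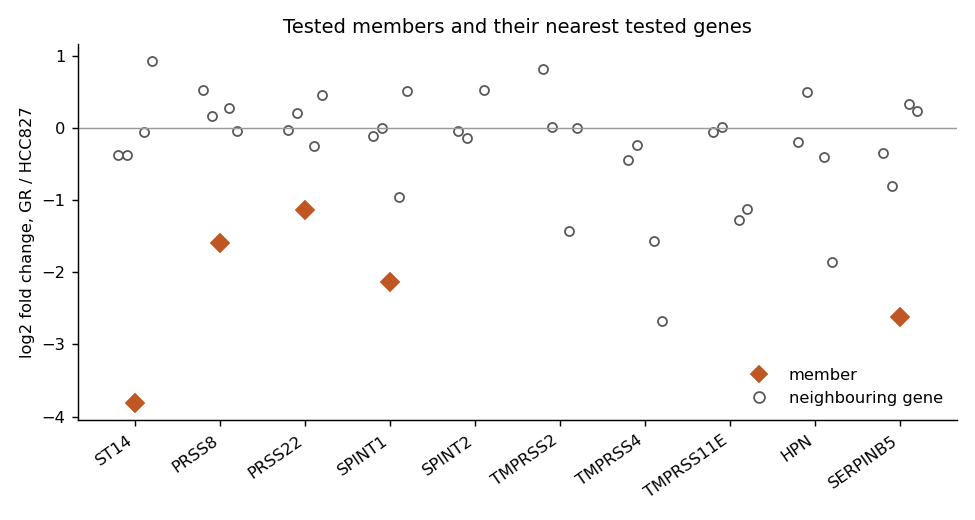
Log2 fold change of HCC827/GR against HCC827 for the tested members (diamonds) and their nearest tested protein-coding genes (open circles, in chromosome order); members without a diamond were not tested, and the joined entry named C19orf33 is left out beside SPINT2. ST14, at -3.82, stands below its 4 neighbours, which lie between -0.37 and 0.93.

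Of the 17 other membrane serine proteases listed, 16 had an entry and 2 passed the filter, PRSS21 (0.21, limma adjusted p = 0.624) and TMPRSS9 (0.52, adjusted p = 0.481), and TMPRSS9 was listed at 0 in HCC827 replicate 2 alone. With all 5 libraries neither was called by limma or by Ballgown's model, and by limma neither had an unadjusted p under 0.05. In HCC827 replicate 3 TMPRSS9 was at 1.52 FPKM, above its 1.37, 1.27 and 1.19 FPKM in HCC827/GR. Its positive log2 fold change thus rests on the 0 in HCC827 replicate 2. Among those under the filter, and named after its values were seen, TMPRSS13 was at 1.31 and 0.613 FPKM in HCC827 and at 0, 0.0103 and 0.0115 FPKM in HCC827/GR, where the groups did not overlap (limma adjusted p = 0.0763 without the filter). TMPRSS15 and TMPRSS11A were lower without overlap as well, but near 0 in both lines. TMPRSS15 was at 0.0352 and 0.0397 FPKM in HCC827 and listed at 0 in HCC827/GR. TMPRSS11A was at most 0.0106 FPKM. TPSG1 was higher without overlap, at 0.0446 and 0.131 FPKM in HCC827 and 0.743, 0.278 and 0.787 FPKM in HCC827/GR. Their limma adjusted p-values in that fit were 0.0921, 0.675 and 0.250. No share of such separations was computed for entries under the filter.

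Known or proposed substrates and receptors of these proteases moved in both directions. Of 18 listed genes 13 were tested, 5 were called lower and 2 higher, with a median log2 fold change of -0.92. The shares called by limma over all entries tested were 5.71% lower and 5.26% higher. SCNN1A, the alpha subunit of the epithelial sodium channel, was at 22.1 and 16.2 FPKM in HCC827 and at 1.37, 1.32 and 0.714 FPKM in HCC827/GR (-3.24, limma adjusted p = 0.00443). EPCAM, an epithelial adhesion molecule that matriptase cleaves, was at 86.9 and 72.6 FPKM in HCC827 and at 7.32, 10.8 and 8.53 FPKM in HCC827/GR (-3.04, adjusted p = 0.00349). Both lay far below the parental levels in all 3 resistant libraries.

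EGFR itself fell by 3.31 on the log2 scale, MST1R, the receptor of macrophage-stimulating protein, by 1.49 and LAMB3, a laminin-332 chain named after its values were seen, by 1.15. The call of EGFR was lost without HCC827 replicate 2 (limma adjusted p = 0.0697) or replicate 3 (0.0563), that of MST1R without HCC827/GR replicate 1 (0.0518), and that of LAMB3 without any 1 library other than HCC827/GR replicate 3. The genes called higher were PDGFD (2.08, limma adjusted p = 0.0254) and PDGFC (1.43, adjusted p = 0.0437), which encode platelet-derived growth factors released from precursors by proteolysis. Both calls were lost without the filter (limma adjusted p of 0.0550 and 0.0861), that of PDGFD also without either HCC827 library or HCC827/GR replicate 1 (0.0895 to 0.130), and that of PDGFC without any 1 HCC827/GR library (0.117 to 0.127). MET, the receptor of the hepatocyte growth factor, was not called (-0.60, limma adjusted p = 0.0621), nor was PLAU, the urokinase that matriptase can activate (-1.02, adjusted p = 0.0857).

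Among 15 other serine protease inhibitors 8 were tested, of which 1 was called lower and 1 higher (median -0.07). Across all entries tested, 5.71% were called lower and 5.26% higher. SLPI, the secretory leukocyte protease inhibitor, averaged 2.06 ± 0.0777 FPKM in HCC827 (SD, n = 2) and was listed at 0 in all 3 HCC827/GR libraries (limma adjusted p = 0.00593). SERPINE2, which inhibits thrombin and also prostasin, was at 10.2 and 16.7 FPKM in HCC827 and at 46.6, 41.3 and 65.4 FPKM in HCC827/GR (1.86, limma adjusted p = 0.0254). SERPINE2 was higher in every resistant library than in either parental one, but its call was lost when any 1 library was left out. The Kunitz-domain proteins APLP2 (-0.37, adjusted p = 0.0730) and APP (0.27, adjusted p = 0.257) were not called.

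Maspin belongs to clade B of the serpins. Of 12 other genes of the clade 9 had an entry and 3 were tested, of which SERPINB1, an inhibitor of neutrophil proteases, was called lower (20.7 and 20.6 FPKM in HCC827, 8.36, 8.22 and 7.32 FPKM in HCC827/GR, -1.28, limma adjusted p = 0.00552). SERPINB6 (0.23) and SERPINB8 (0.34), a neighbour of SERPINB5, were not. By limma, 5.71% of all entries tested were called lower.

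Of 12 factors that bind E-boxes or belong to the epithelial grainyhead, OVOL and ETS groups, 10 were tested, 4 were called lower and 2 higher. Among all entries tested, the shares were 5.71% and 5.26%. GRHL2, a grainyhead factor of epithelial genes, was at 3.82 and 5.59 FPKM in HCC827 and at 0.0122, 0.0203 and 0.00963 FPKM in HCC827/GR (-2.47, limma adjusted p = 0.00469). EHF (-2.51), OVOL1 (-1.35) and GRHL1 (-0.74) were called lower too, but the call of GRHL1 was lost without any 1 library and that of OVOL1 without any 1 HCC827/GR library. The E-box repressors ZEB2 (0.95, adjusted p = 0.0173) and ZEB1 (0.82, adjusted p = 0.0372) were called higher. The ZEB2 call was lost without the filter (limma adjusted p = 0.0504) or any 1 library (0.0507 to 0.0733), and that of ZEB1 without the filter (0.0720) or any library other than HCC827 replicate 3. Of the SNAI repressors, named after their values were seen, SNAI1 was at 2.26 and 2.59 FPKM in HCC827 and at 1.49, 1.64 and 1.90 FPKM in HCC827/GR, lower without overlap but not called (-0.36, adjusted p = 0.138). SNAI2 was at 1.34 and 6.07 FPKM in HCC827 and at 12.9, 12.3 and 3.31 FPKM in HCC827/GR, and the groups overlapped (1.19, adjusted p = 0.374). OVOL2 (-0.18) and ELF3 (-0.56) were not called, and the part of any of these factors in the levels of the members was not tested.

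**Figure D5:**
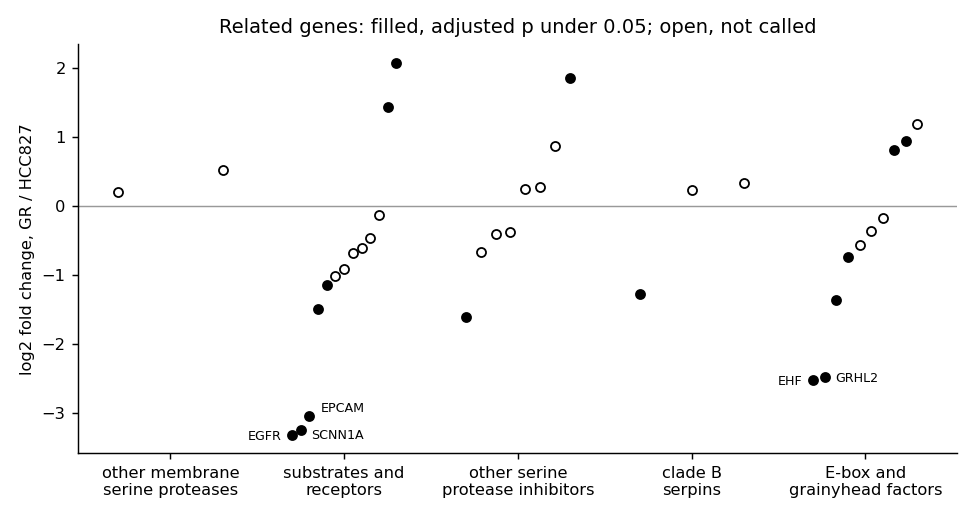
Log2 fold change of HCC827/GR against HCC827 for each tested gene of 5 related lists, ordered within a list, with filled points for an adjusted p under 0.05 and open points for genes not called. EGFR is the lowest point at -3.31, and PDGFD the highest at 2.08.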

How the data were processed

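RNA of 3 HCC827/GR and 2 HCC827 libraries was examined through the FPKM values that the authors deposited, which they made with StringTie and Ballgown after Cutadapt, Bowtie2 and TopHat2. The submitters' processing notes name hg18, whereas 135164 of 135299 Ensembl transcript identifiers in the table matched GENCODE 29 (GRCh38), from which positions were taken. The labels describe a small RNA kit with single-end reads, and the study's methods a paired-end library depleted of ribosomal RNA. A single FPKM column (1 in all) that matched no sample was left out. FPKM carries no read counts, so no counting error is given. In the 15599 entries with 1 transcript, low values stepped by an amount that placed the relative depth of the libraries between 0.919 and 1.25 times that of HCC827/GR replicate 1.

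Values were compared with limma 3.58.1 in R 4.3.3 (two-sided, variance trend in eBayes) after a pseudocount of 1 was added and log2 taken, for 16189 entries averaging 0.5 FPKM or more, with Benjamini-Hochberg adjustment over all of them. Ratios were tested by exact permutation of the libraries. Python 3.11.15 was used for the rest, with scipy 1.17.1, numpy 2.4.6, matplotlib 3.10.9 and pandas 2.3.3. The fit was also run on simulated data, in which all entries shared a common spread and only entries of higher level were changed. That run checked the code and does not bear on genes at low levels. The members and gene lists were chosen with earlier results of these data known. All members are named, and of each list up to 6 called genes with the largest change and up to 2 uncalled genes with the highest mean. Other genes singled out from the lists, the cell type markers and the neighbours were named after their values were seen. This holds also where it is not said beside them. Values of 2 genes of the lists were left out of every count and are not reported here. For ST14 and SPINT1 the 3 nearest entries are named. The planned ratios with SPINT2 could not be computed. Alternatives tried were quantile and median-ratio scaling, a smaller pseudocount (0.1), dropping the filter or raising it to 1 FPKM, no trend, the replicate number as a block, summed entries, Ballgown's model and each library left out.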

Additional observations from a re-analysis of the deposited data

How the results depend on the processing

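The fold changes of the 5 tested members stayed negative under all 14 alternatives, and ST14 and SERPINB5 kept their call in 12 of them, PRSS8 in 11, SPINT1 in 8 and PRSS22 in 7. With the replicate number as a block, limma called 0 of the 16189 entries (3545 had an unadjusted p under 0.05), so that the counts over all entries, members and lists were 0 in both directions. The log2 fold changes under the block were -3.78 for ST14, -1.55 for PRSS8, -1.12 for PRSS22, -2.08 for SPINT1 and -2.62 for SERPINB5. They equal those without HCC827/GR replicate 1, because no HCC827 library has the number 1 and the block takes up that library. The labels do not pair the numbers, and same-numbered libraries deviated together with correlations of only 0.0328 and 0.0147. Ballgown's model called 9 entries lower and 6 higher (2782 entries had an unadjusted p under 0.05). Among them were 0 members and 0 genes of the related lists, and the cell type markers were not counted under it. The model gave -3.74 for ST14, -1.62 for PRSS8, -1.03 for PRSS22, -2.01 for SPINT1 and -2.61 for SERPINB5.

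Without a filter PRSS22 was no longer called (-1.13), 504 entries were called higher, 3 other inhibitors were called lower and 0 higher, and 0 substrates and 0 E-box and grainyhead factors were called higher. A mean of at least 1 FPKM left 0 other inhibitors lower, because SLPI fell under it, and 1 factor higher. With summed entries 1 factor was called higher, and with a pseudocount of 0.1 only 1 substrate. The cause was not tested.

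With each library left out in turn, between 2 and 5 members were called lower, and 287 to 477 entries were lower and 202 to 485 higher. Substrates called lower numbered 3 to 5 and higher 0 to 1, factors lower 2 to 3 and higher 0 to 1, other inhibitors lower 1 to 1 and higher 0 to 0, and other membrane proteases higher 0 to 1 (1 without HCC827 replicate 3). The log2 fold changes ranged from -3.95 to -3.69 for ST14, -1.84 to -1.35 for PRSS8, -1.28 to -0.98 for PRSS22, -2.41 to -1.86 for SPINT1 and -2.76 to -2.48 for SERPINB5. PRSS8 was not called without HCC827/GR replicate 1 (limma adjusted p = 0.0547). With 1 HCC827 library, it was assumed to vary like the resistant ones. FPKM without counts and 2 parental libraries limit what can be said of members under 0.5 FPKM.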
